A study of Mus musculus with 52 samples.

Results

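The promoters of the Hox genes were examined in calibrated assays of chromatin accessibility from mouse embryonic stem cells (mESCs) in which the KDM2 proteins could be altered. Rows of the 4 deposited tables whose RefSeq identifier belongs to a listed gene of the HoxA, HoxB, HoxC or HoxD cluster were taken, which gave 41 promoter intervals of 38 genes out of 20633 intervals in each table. HoxA (chromosome 6) contributed 11 intervals, HoxB (chromosome 11) 11, HoxC (chromosome 15) 9 and HoxD (chromosome 2) 10. Hoxa10, Hoxb3 and Hoxd11 each had a pair of intervals, which are named by their RefSeq identifiers, and none of the 41 intervals overlapped its neighbour.

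Hox genes encode homeodomain transcription factors that give cells their position along the body axis, and they lie in clusters in which the order of the genes follows the order of their use along that axis. In mESCs they are largely silent, and their CpG-rich promoters are held by the Polycomb complexes PRC1 and PRC2. KDM2A and KDM2B bind non-methylated CpG dinucleotides through a ZF-CxxC domain, their long forms carry a JmjC demethylase domain that acts on histone H3, and KDM2B brings a variant PRC1 complex to CpG islands.

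Each line carried a tamoxifen-inducible CRE (CreERT2 in the Rosa26 locus), and untreated cells were compared with cells given 800 nM 4-hydroxytamoxifen for 96 h. In Kdm2a/b-JmjC fl/fl cells, derived from mice, treatment removes the long forms of both proteins (3 untreated and 3 tamoxifen libraries). In Kdm2a/b-CXXC fl/fl cells, a clone edited from the Kdm2b-CXXC fl/fl line, it removes the ZF-CxxC domain of both proteins (4 and 4 libraries), and the Kdm2a-CXXC fl/fl clone and the Kdm2b-CXXC fl/fl line lose it from 1 protein (3 and 3 libraries each). All cells were grown in serum and LIF, and fly SG4 cells were added to each sample as a spike-in. Tamoxifen-treated cells without floxed alleles were not analysed here, so the drug and the deletion cannot be told apart, and promoter reads do not check the loss of an exon elsewhere in the gene.

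The 26 libraries held 1.49 M to 3.03 M reads over promoters (M, 1000000), of which 1543 to 2891 fell on the Hox intervals. The median Hox promoter had 31 to 61 reads in a library. Values are calibrated reads, that is, reads over a 400 bp interval at the start site divided by a size factor from the spike-in. The 10 promoters of the embryonic stem cell list had median levels of 78.4 to 163 calibrated reads in untreated cells of the 4 lines, and 5 genes closed in stem cells, such as Alb, which encodes albumin, had 5.06 to 9.63. The neural list had 85.7 to 123, above the stem cell list in Kdm2a/b-JmjC fl/fl (108 against 78.4) and below it in the other lines. The primitive endoderm list had 40.2 to 67.7 and the mesoderm list 37.0 to 54.5. In a bulk assay, openness of more cells and more openness per cell cannot be told apart.

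The sequences of 24 of the 41 promoters were matched by start site in the RefSeq promoter table for GRCm38.p6, the assembly of mm10. Those of 6 promoters are printed for the 250 bases before the start site, 5′ to 3′, with each CG dinucleotide in capitals, because the level of a promoter went with its number of CG. Hoxd10 (chr2:74691641-74691890, plus strand) was the most accessible Hox promoter in untreated Kdm2a/b-CXXC fl/fl cells and Hoxd4 (chr2:74721728-74721977, plus strand) the least, and Hoxa9 (chr6:52227371-52227620, minus strand) was also among the lowest. Hoxd13 (chr2:74667975-74668224, plus strand) held the most CG of the 41 intervals. Hoxd12 (chr2:74674763-74675012, plus strand) and Hoxa10 (NM_008263) (chr6:52234940-52235189, minus strand) are described with the treatments.
Hoxd10: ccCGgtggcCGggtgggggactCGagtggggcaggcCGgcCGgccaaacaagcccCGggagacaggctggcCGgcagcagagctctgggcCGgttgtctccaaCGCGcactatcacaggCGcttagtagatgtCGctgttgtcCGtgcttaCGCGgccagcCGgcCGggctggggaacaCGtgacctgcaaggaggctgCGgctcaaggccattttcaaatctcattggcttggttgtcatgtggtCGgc
Hoxd4: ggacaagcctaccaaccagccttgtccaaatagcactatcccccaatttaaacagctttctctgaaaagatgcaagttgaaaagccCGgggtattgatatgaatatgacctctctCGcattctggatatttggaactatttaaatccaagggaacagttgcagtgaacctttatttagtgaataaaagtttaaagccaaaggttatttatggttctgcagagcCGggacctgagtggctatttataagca
Hoxa9: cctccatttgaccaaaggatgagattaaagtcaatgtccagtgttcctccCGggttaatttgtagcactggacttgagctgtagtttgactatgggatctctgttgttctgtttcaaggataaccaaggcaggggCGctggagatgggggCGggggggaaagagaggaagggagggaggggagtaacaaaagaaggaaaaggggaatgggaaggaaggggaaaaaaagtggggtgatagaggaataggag
Hoxd13: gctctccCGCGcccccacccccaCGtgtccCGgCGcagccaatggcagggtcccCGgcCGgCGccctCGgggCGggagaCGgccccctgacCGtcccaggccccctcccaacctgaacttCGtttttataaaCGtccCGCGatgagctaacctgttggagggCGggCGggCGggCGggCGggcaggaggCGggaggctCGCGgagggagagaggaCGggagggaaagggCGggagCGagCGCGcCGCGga
Hoxd12: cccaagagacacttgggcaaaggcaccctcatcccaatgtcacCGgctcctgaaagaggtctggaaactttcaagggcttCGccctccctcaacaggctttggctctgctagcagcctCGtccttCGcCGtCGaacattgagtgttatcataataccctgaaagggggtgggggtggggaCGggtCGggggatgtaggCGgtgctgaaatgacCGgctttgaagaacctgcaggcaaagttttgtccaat
Hoxa10 (NM_008263): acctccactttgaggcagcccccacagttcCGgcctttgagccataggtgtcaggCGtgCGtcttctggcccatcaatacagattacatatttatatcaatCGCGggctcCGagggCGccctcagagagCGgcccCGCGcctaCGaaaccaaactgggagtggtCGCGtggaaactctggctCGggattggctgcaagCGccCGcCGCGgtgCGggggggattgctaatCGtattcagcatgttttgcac
These stretches held 20 CG for Hoxd10, 3 for Hoxd4, 3 for Hoxa9, 31 for Hoxd13, 10 for Hoxd12 and 20 for Hoxa10 (NM_008263). The median over the 32817 promoters of that table, another set and window than the intervals analysed, was 6. In the 400 bp intervals the median was 20 CG over the 41 Hox promoters and 24 over all promoters.

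The Hox promoters were accessible at low levels in all libraries. Ranked among all 20633 promoters of a library, the median Hox promoter stood between the 35.6 and the 40.1 percentile, and its level of 33.7 to 73.8 calibrated reads compared with a median of 53.0 to 127 over all promoters and of 93.1 to 224 over the 11262 CpG-rich ones. Of the 41 Hox intervals 21 were CpG-rich by composition (GC fraction of at least 0.5 and observed over expected CpG of at least 0.6): 7 in HoxA, 2 in HoxB, 5 in HoxC and 7 in HoxD. Ranked among CpG-rich promoters alone, the median of these 21 stood between the 5.96 and the 18.4 percentile.

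Hoxd10, a posterior gene used in limb and trunk, read 97.8, 79.7, 116 and 129 calibrated reads in the 4 untreated Kdm2a/b-CXXC fl/fl libraries. Hoxc13, known for its role in hair, read 73.1, 94.7, 97.5 and 61.0, and Hoxc10 read 75.1, 84.7, 86.2 and 62.9. The ranges of these 3 most accessible promoters overlapped, so their order is not larger than the spread between libraries. At the other end Hoxd4 read 2.96, 0.996, 8.43 and 6.78, Hoxb3 (NM_001079869) read 10.9, 5.98, 6.56 and 4.84, and Hoxa9, a gene of blood progenitors, read 20.7, 12.95, 9.37 and 7.74. The highest mean, 106 ± 21.4 (SD, n = 4), was 22.0 times the lowest, 4.79 ± 3.41, and the libraries of Hoxd10 lay far above those of all 3 low promoters. Between neighbours in the order, 40 of 40 pairs overlapped in this line, 38 of 40 in Kdm2a/b-JmjC fl/fl, 39 of 40 in Kdm2a-CXXC fl/fl and 40 of 40 in Kdm2b-CXXC fl/fl.

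The order of the promoters was alike in the 4 lines. Spearman's rho between untreated levels was 0.92 to 0.94 over the 6 pairs of lines, across the 41 promoters, which are not independent replicates and share base composition. Hoxd4 was lowest in each line (4.79 to 6.20 on average), and Hoxc13 or Hoxd10 highest (106 to 135). Each line was calibrated on its own, so levels were not tested between lines.

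**Figure D1:**
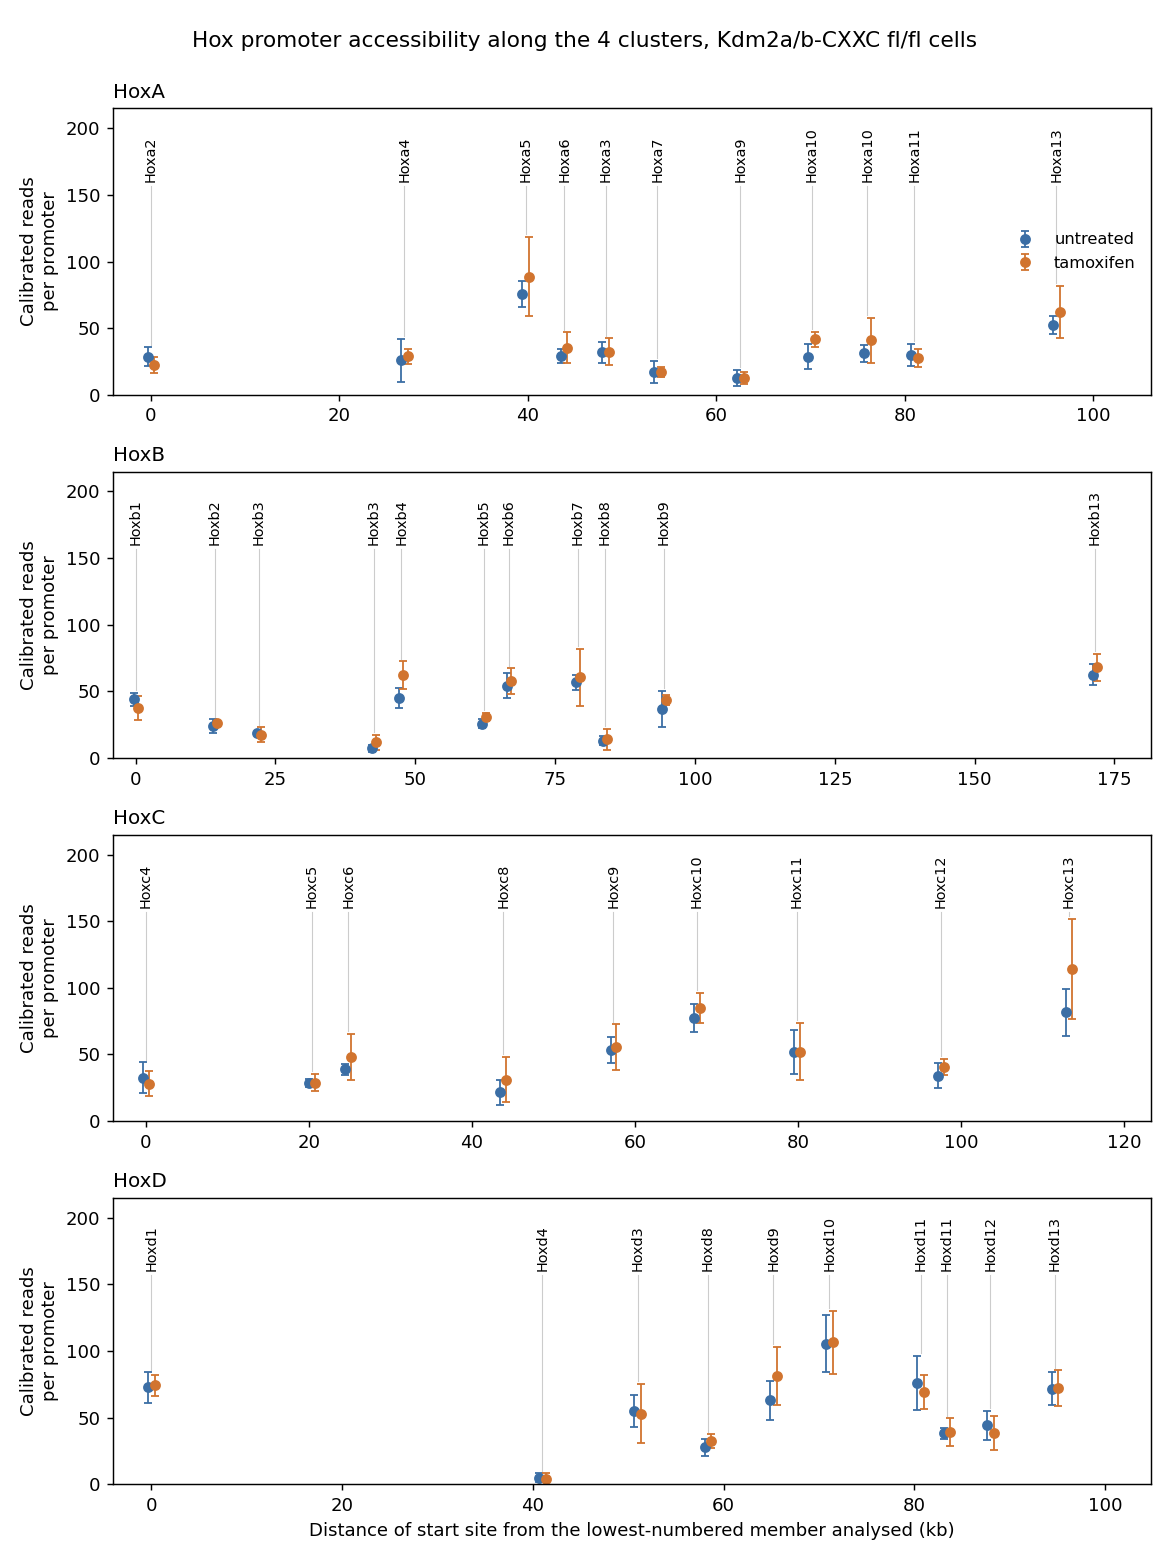
Mean calibrated reads of the 41 Hox promoters in Kdm2a/b-CXXC fl/fl cells (bars: SD, n = 4) against the distance of the start site, in kb, from the lowest-numbered gene analysed in each cluster. Levels ran unevenly along HoxA, HoxB and HoxD and higher at the far end of HoxC, and untreated (blue) and tamoxifen (orange) libraries overlapped for each of the 40 promoters that were tested.

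Position went with accessibility most in HoxC, as a description over few promoters. Moving from Hoxc4 towards Hoxc13, untreated levels gave a rho with distance of 0.65 to 0.80 in the 4 lines (9 promoters). The rho was -0.01 to 0.18 in HoxA (11 promoters), 0.19 to 0.55 in HoxB (11) and 0.02 to 0.16 in HoxD (10). Hoxc13, Hoxc10 and Hoxc11 lie at the posterior end of HoxC and also hold more CG than Hoxc4, Hoxc5 and Hoxc6, with 26 to 35 against 11 to 15 in the 400 bp interval, but Hoxc8 holds 34 and was the lowest of the cluster in Kdm2a/b-CXXC fl/fl (21.5 calibrated reads), Hoxc9 holds 16 and read 53.5 on average, and Hoxc12, also at the posterior end, holds 26 and read 34.1. The part of composition in the trend was not tested.

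By paralog group, the 18 posterior promoters (groups 9 to 13) had a median untreated level of 52.2 calibrated reads in Kdm2a/b-CXXC fl/fl cells, above 28.6 for the 15 central ones (groups 4 to 8) and 30.2 for the 8 anterior ones (groups 1 to 3). Posterior promoters were also the highest class in the other lines, at 48.2 in Kdm2a/b-JmjC fl/fl, 55.9 in Kdm2a-CXXC fl/fl and 69.9 in Kdm2b-CXXC fl/fl, where the other classes stood at 27.7 to 37.7. In every untreated library of the 4 lines the median of the posterior class was above those of the other classes. The members of each class spread widely: posterior promoters of Kdm2a/b-CXXC fl/fl ran from 12.7 (Hoxa9) to 106 (Hoxd10).

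Among clusters HoxD had the highest median level in untreated cells of each line, at 59.1 to 83.1 calibrated reads. HoxA had the lowest, at 29.0 to 39.3, and HoxB (32.9 to 46.8) and HoxC (38.9 to 52.8) lay between, with HoxC the higher of them in the 3 CXXC lines and HoxB in Kdm2a/b-JmjC fl/fl. Medians of single libraries overlapped between HoxD and HoxC in Kdm2a-CXXC fl/fl (54.9 to 63.2 against 42.6 to 58.6). They did so too in Kdm2b-CXXC fl/fl (64.1 to 97.4 against 40.4 to 73.8), but not in the other lines. Those of HoxA and HoxB overlapped except in Kdm2b-CXXC fl/fl, and those of HoxB and HoxC except in Kdm2a-CXXC fl/fl. Hoxd4 was an exception within HoxD, with a level near that of the closed genes.

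Of the 3 genes with a pair of start sites, Hoxd11 had untreated libraries that did not overlap in any of the 4 lines. In Kdm2a/b-CXXC fl/fl Hoxd11 (NM_008273), with 43 CG in the interval, read 82.0, 102.6, 59.0 and 61.0 calibrated reads, and Hoxd11 (NR_073086), with 16, read 44.4, 35.9, 37.5 and 34.9. Hoxb3 (NM_010458) read 18.8, 18.9, 16.9 and 19.4 in that line, above each value of Hoxb3 (NM_001079869), but the pair overlapped in the other lines. The pair of Hoxa10 promoters overlapped in Kdm2a/b-CXXC fl/fl, at 28.6 ± 9.58 for NM_008263 and 31.1 ± 6.50 for NM_001122950 (SD, n = 4), and in Kdm2a/b-JmjC fl/fl. Hoxa10 (NM_008263) was the higher without overlap in untreated Kdm2a-CXXC fl/fl cells (52.5, 40.4 and 42.6 against 23.9, 36.5 and 33.4) and in untreated Kdm2b-CXXC fl/fl cells (40.3, 40.4 and 42.1 against 34.6, 24.1 and 34.2).

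More CG went with more accessibility among the Hox promoters, as it did among all promoters. Spearman's rho between untreated level and the number of CG was 0.57 to 0.70 over the 41 Hox promoters and 0.74 to 0.76 over the 20630 promoters with a composition, across sites of the same libraries. The Hox promoters nevertheless stood low for their composition where CG were many: of the 21 with 20 or more CG, 21 lay below the median of all promoters in the same bin of 10 CG, in each of the 4 lines. Of the 20 with fewer CG, 9 to 12 lay below it. Hoxa4, with 52 CG, had 25.7 ± 16.3 calibrated reads in untreated Kdm2a/b-CXXC fl/fl cells against a bin median of 105, and Hoxd10, with 19 CG, had 106 against 36.8. Hoxd10 lies at the edge of its bin, and the next bin, of 20 to 29 CG, had a median of 89.4, which Hoxd10 also exceeded. It exceeded the median of that next bin in Kdm2a/b-JmjC fl/fl too (111 against 103). It did not in Kdm2a-CXXC fl/fl (125 against 130) or Kdm2b-CXXC fl/fl (113 against 131). The intervals are fixed at annotated start sites, so openness beside them is not counted.

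**Figure D2:**
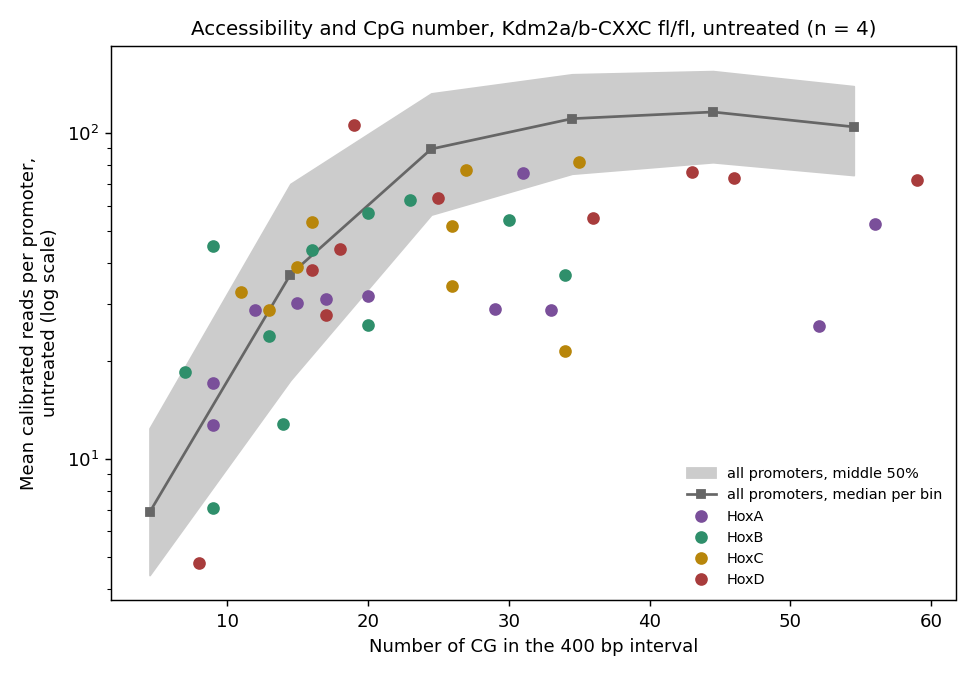
Mean calibrated reads of each Hox promoter in untreated Kdm2a/b-CXXC fl/fl cells (n = 4, log axis) against the number of CG in its 400 bp interval, coloured by cluster, over the median (line) and middle 50% (grey) of all promoters in bins of 10 CG. The 21 Hox promoters with 20 or more CG lie below the median of their bin, and Hoxd10, with 19 CG and 106 calibrated reads, stands above the grey band.

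Short motifs were counted in the 400 bp intervals on both strands, where matches describe letters and not sites. GGGCGG, the GC box, was found in 39.0% of Hox promoters and 56.3% of all promoters, TATAAA in 19.5% and 10.4%, CACGTG, the E-box, in 26.8% and 9.54%, and TAATTA, a homeodomain core, in 7.32% and 3.92%. GGGCGG and CACGTG each contain CG. Hoxd4 and both Hoxa10 promoters were among those with TATAAA, and Hoxa5, Hoxd4 and Hoxd10 among those with CACGTG, which the highest and the lowest promoter thus shared.

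Removal of the KDM2 long forms left no Hox promoter past both thresholds, which were a fold change above 1.4 and 0.05 for the adjusted p (limma with Benjamini-Hochberg adjustment over all tested promoters). In Kdm2a/b-JmjC fl/fl cells 39 of the 41 were tested, 0 passed, and 13 of 17174 promoters did in all (0.0757%). At an unadjusted p under 0.05 there were 6 Hox promoters (15.4%) against 20.6% of all promoters. EdgeR and DESeq2 also called 0 Hox promoters, with 6 and 3 at an unadjusted p under 0.05. All promoters at that level numbered 3592 and 2572 of 17174 with these tests. The smallest adjusted p of a Hox promoter was 0.131. The median log2 fold change of the tested Hox promoters was -0.22 against -0.21 for all promoters, with 8 higher and 31 lower (20.5% higher, against 16.6% of all promoters), and with TMM scaling, which sets the typical promoter to no change, 19 were higher and the Hox median was -0.012.

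Each tamoxifen library was below each untreated library for 9 tested Hox promoters (23.1%, against 23.2% of all promoters), and above them for 1 (2.56% against 0.908%). The lower ones were Hoxa5, Hoxa7, both Hoxa10 promoters, Hoxb1, Hoxb7, Hoxc10, Hoxc13 and Hoxd9, and Hoxb3 (NM_001079869), too low to be tested, was lower too. The share of Hox promoters that were lower was thus near that of the whole table.

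Hoxc13 read 119, 119.7 and 116 calibrated reads in untreated Kdm2a/b-JmjC fl/fl cells and 89.7, 71.3 and 95.2 after tamoxifen. The treated libraries were all lower, and the log2 fold change of -0.48 ± 0.18 (SE; unadjusted p = 0.00867, adjusted p = 0.131 by limma) did not pass. Hoxb1, a gene of the hindbrain, read 62.1, 66.2 and 59.6 untreated and 40.6, 45.4 and 40.9 treated, which did not overlap (-0.56 ± 0.24, adjusted p = 0.171 by limma). With TMM scaling the log2 fold changes of Hoxc13 and Hoxb1 were -0.27 and -0.35 (unadjusted p = 0.110 and 0.120 by limma).

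Hoxa7 read 20.3, 25.4 and 22.9 untreated and 8.54, 18.0 and 17.4 treated (-0.67 ± 0.38, adjusted p = 0.301 by limma). Hoxa10 (NM_008263) read 37.3, 39.0 and 45.8 untreated and 31.0, 22.7 and 26.6 treated (-0.59 ± 0.29, adjusted p = 0.225 by limma). In both, the treated libraries were the low ones. With TMM scaling their log2 fold changes were -0.47 and -0.39 (unadjusted p = 0.211 and 0.158 by limma).

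Hoxd12, a posterior gene of the limb bud, was the 1 tested promoter with each treated library above the untreated ones. It read 21.5, 28.1 and 20.2 untreated and 35.2, 37.6 and 38.9 treated. The log2 fold change of 0.67 ± 0.30 had a 95% interval of 0.07 to 1.27 and an adjusted p of 0.194 by limma. With TMM scaling the log2 fold change of Hoxd12 was 0.87 (unadjusted p = 0.00373, adjusted p = 0.880 by limma). Of its neighbours on either side, Hoxd13 stood at -0.47 ± 0.21 and Hoxd11 (NR_073086) at -0.07 ± 0.29. The 95% interval of the latter, -0.63 to 0.50, did not settle its direction, and the median of all promoters was -0.21.

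**Figure D3:**
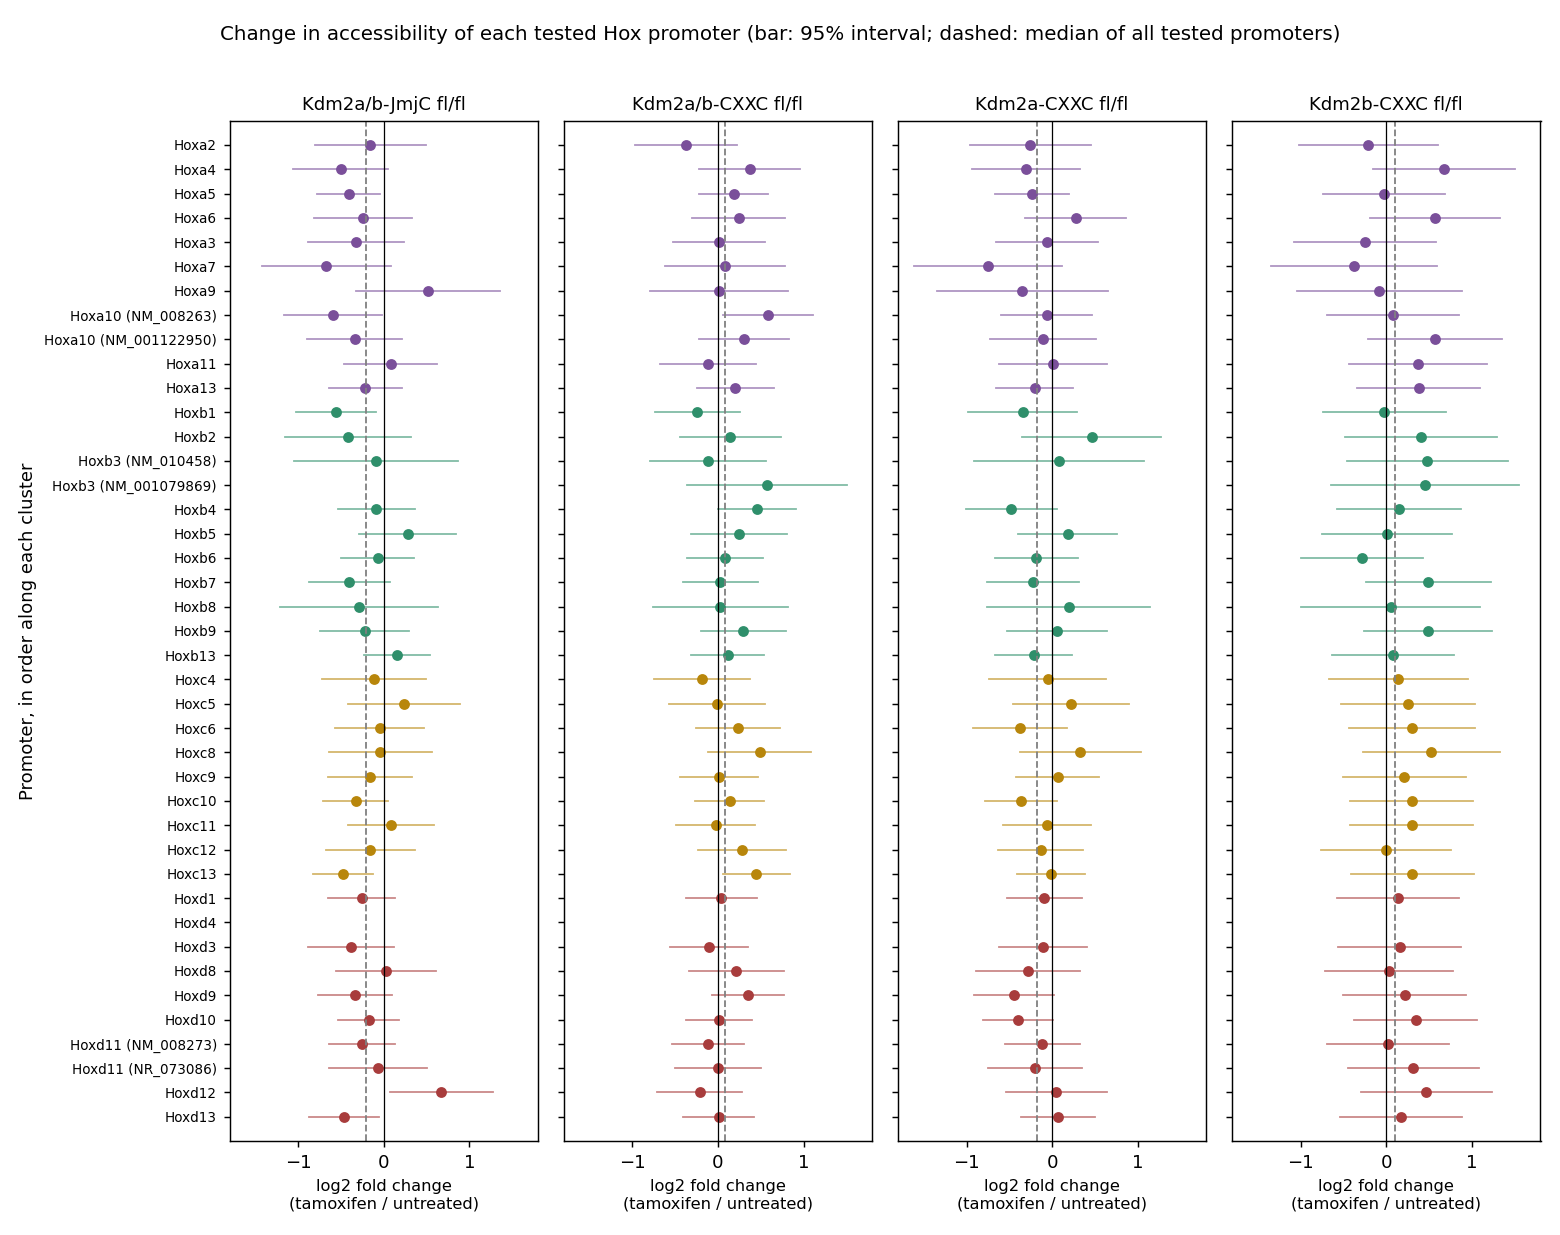
Log2 fold change (tamoxifen over untreated) of each tested Hox promoter with its 95% interval in the 4 lines, coloured by cluster (HoxA purple, HoxB green, HoxC gold, HoxD red), with the median of all tested promoters dashed. The intervals of 6 promoters in the first panel and 3 in the second leave out 0, and the points scatter around the dashed line, at -0.21, 0.09, -0.18 and 0.10 from left to right.

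Loss of the ZF-CxxC domain from both proteins, which takes them off CpG islands, also left 0 of 40 tested Hox promoters past the thresholds in Kdm2a/b-CXXC fl/fl cells. Of all 16413 promoters 0 passed (0%). At an unadjusted p under 0.05 there were 3 Hox promoters (7.5%) against 4.65% of all promoters, and 764 promoters in all. EdgeR and DESeq2 called 0 with 2 Hox promoters each at that level. All promoters at that level numbered 778 and 740 of 16413 with these tests. The median log2 fold change was 0.08 for the Hox promoters and 0.09 for all promoters, with 29 higher and 11 lower (72.5% higher, against 68.0% of all promoters), and with TMM scaling 19 were higher and the Hox median was -0.0034. For no tested Hox promoter did all treated libraries lie beyond all untreated ones, as against 1.8% of all promoters above and 0.597% below.

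Hoxc13 read 73.1, 94.7, 97.5 and 61.0 untreated and 166, 109, 107 and 74.6 treated in this line. The groups overlapped, and the log2 fold change of 0.45 ± 0.20 (unadjusted p = 0.0252, adjusted p = 0.996 by limma) was opposite in sign to that in Kdm2a/b-JmjC fl/fl. Hoxa10 (NM_008263) read 27.7, 34.9, 36.5 and 15.5 untreated and 41.7, 45.8, 45.0 and 33.7 treated, also overlapping and also higher on average (0.58 ± 0.27, adjusted p = 0.996 by limma). With TMM scaling the log2 fold changes of the pair were 0.36 and 0.50 (unadjusted p = 0.0140 and 0.0368, adjusted p = 0.362 and 0.476 by limma). The difference between lines was not tested, since their tables were calibrated apart.

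In Kdm2a-CXXC fl/fl cells 0 of 39 tested Hox promoters and 0 of 17727 promoters passed (0%). None reached an unadjusted p under 0.05 in limma, edgeR or DESeq2, against 8.39% of all promoters (1488) in limma. The median log2 fold change was -0.11 for the Hox promoters and -0.18 for all promoters, with 12 higher and 27 lower (30.8% higher, against 18.8% of all promoters), and with TMM scaling the Hox median was 0.059 and 22 were higher. Untreated libraries were each above the treated ones for Hoxb4, Hoxc10 and Hoxd9 (7.69%, against 13.4% of all promoters), and each below them for 0 (1.12% of all).

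Hoxd10 had the smallest p of this line and read 107, 116 and 151 untreated and 89.8, 111 and 81.2 treated, which overlapped (-0.40 ± 0.21, adjusted p = 0.596 by limma). Hoxd9, its neighbour, read 65.9, 81.5 and 74.0 untreated and 47.9, 53.2 and 60.9 treated (-0.44 ± 0.24, adjusted p = 0.596 by limma). Hoxb4, used in blood stem cells, read 50.6, 57.1 and 44.6 against 32.3, 40.6 and 35.5, and Hoxc10 read 100.3, 103 and 110.4 against 88.0, 75.5 and 80.0. In these last 3 the treated libraries were all lower, by log2 fold changes of -0.36 to -0.48 that did not pass.

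In Kdm2b-CXXC fl/fl cells, which lose the domain that brings variant PRC1 to CpG islands, 0 of 40 tested Hox promoters and 0 of 17930 promoters passed (0%). No Hox promoter reached an unadjusted p under 0.05 in limma, edgeR or DESeq2, as against 0.669% of all promoters (120) in limma. With TMM scaling 3 Hox promoters did, and 1396 promoters in all. The median log2 fold change was 0.21 for the Hox promoters and 0.10 for all promoters, with 32 higher and 8 lower (80.0% higher, against 71.1% of all promoters), and with TMM scaling 26 were higher and the Hox median was 0.11. Of the 40 tested, 26 lay above the median of all promoters. Treated libraries were each above the untreated ones for Hoxa4, Hoxa6 and Hoxa10 (NM_001122950) (7.5%, against 2.13% of all promoters), and each below them for 0 (0.446% of all).

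Hoxa4 read 26.5, 22.7 and 21.9 untreated and 40.4, 35.5 and 39.2 treated. The groups stood well apart, with a log2 fold change of 0.67 ± 0.42 (95% interval -0.16 to 1.50, unadjusted p = 0.111, adjusted p = 0.9999 by limma). With TMM scaling its log2 fold change was 0.58 with an unadjusted p of 0.0486 by limma. More promoters of the whole table were below 0.05 with that scaling than with the spike-in scaling. Hoxa6 read 43.8, 26.2 and 43.0 untreated and 66.9, 52.2 and 47.3 treated (0.57 ± 0.39, adjusted p = 0.9999 by limma). Hoxa10 (NM_001122950) read 34.6, 24.1 and 34.2 against 54.3, 43.4 and 40.8, with all treated libraries higher (0.57 ± 0.40, adjusted p = 0.9999 by limma).

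The share of promoter reads that fell on the Hox promoters does not depend on the spike-in scaling. In Kdm2b-CXXC fl/fl it was 957, 1041 and 1016 reads per M promoter reads untreated and 1066, 1055 and 1120.2 treated, so the treated libraries were all higher. In Kdm2a/b-JmjC fl/fl it was 1091, 1080.4 and 1100.03 against 1081, 1063 and 1116, in Kdm2a-CXXC fl/fl 847, 862 and 791 against 889, 862 and 842, and in Kdm2a/b-CXXC fl/fl 1159.7, 1171, 1152 and 1079 against 1161, 1091, 1221 and 1161. These 3 lines overlapped between treatments, and the Kdm2a-CXXC fl/fl libraries gave the Hox promoters a smaller share than the libraries of any other line. Since the 41 promoters share a library, no p is given.

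**Figure D4:**
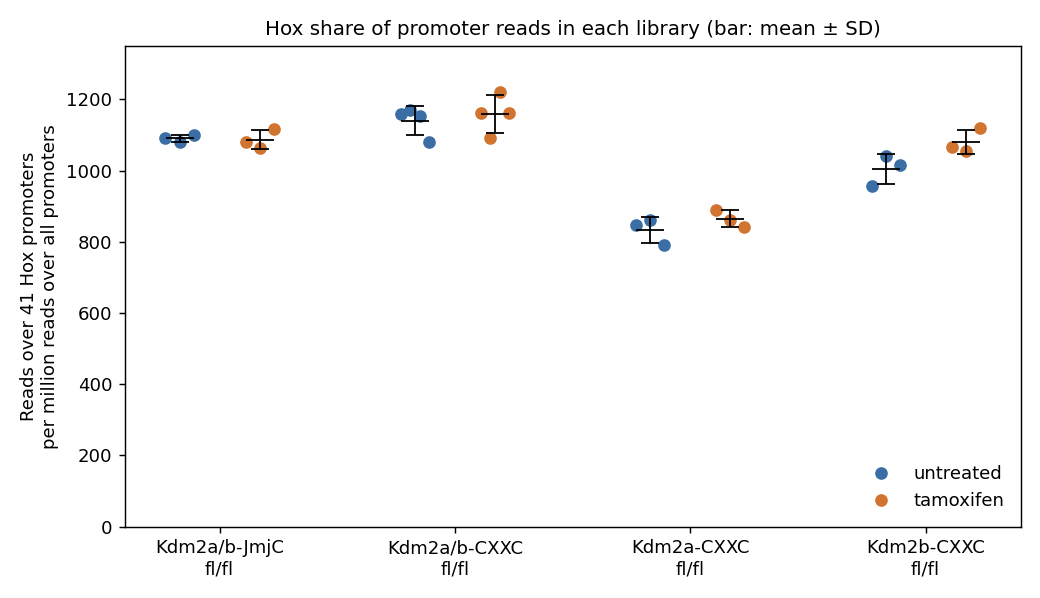
Reads over the 41 Hox promoters per M reads over all promoters in each of the 26 libraries (points; bars show mean ± SD). Treated Kdm2b-CXXC fl/fl libraries (1055 to 1120.2) lie above the untreated ones (957 to 1041), and Kdm2a-CXXC fl/fl libraries (791 to 889) lie lowest.

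Set against the median of all promoters, the cluster medians differed by at most 0.20 on the log2 scale with all libraries. In Kdm2b-CXXC fl/fl the difference was 0.20 for HoxC, with 8 of 9 promoters higher, 0.07 for HoxD with 9 of 9 higher, 0.05 for HoxB with 9 of 11 higher and -0.02 for HoxA with 6 of 11 higher, where 71.1% of all tested promoters were higher. Posterior promoters had 16 of 18 higher there. With 1 library left out the difference ran from 0.15 to 0.21 for HoxC, from 0.04 to 0.11 for HoxD and from 0.05 to 0.20 for HoxB (the highest without untreated replicate 2). That of HoxA ran from -0.15 without untreated replicate 1 to 0.27 without tamoxifen replicate 1. Its sign was not stable, since more than 1 of these omissions turned it positive and others left it negative.

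In Kdm2a/b-JmjC fl/fl the differences were -0.11 for HoxA, 0.05 for HoxB, 0.10 for HoxC and -0.05 for HoxD. With 1 library left out HoxA ran from -0.21 (without tamoxifen replicate 3) to 0.03 (without tamoxifen replicate 2) and was 0.02 without untreated replicate 1. HoxB ran from -0.04 (without tamoxifen replicate 2) to 0.15 (without tamoxifen replicate 1), HoxC from 0.01 (without untreated replicate 3) to 0.16, and HoxD from -0.05 to 0.03 (without untreated replicate 2). The HoxC difference kept its sign and the other clusters did not. In the remaining lines the differences ran from -0.08 to 0.13 with all libraries and from -0.15 to 0.26 with 1 left out. That of HoxC in Kdm2a-CXXC fl/fl was 0.13 and kept its sign, at 0.10 to 0.26 with 1 left out. In Kdm2a/b-CXXC fl/fl that of HoxC was 0.05 and did not, at -0.03 to 0.10. HoxD in Kdm2a/b-CXXC fl/fl was at -0.08 and kept its sign, at -0.15 to -0.03.

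The half-width of the 95% interval of a Hox promoter had a median of 0.52 in Kdm2a/b-JmjC fl/fl, 0.50 in Kdm2a/b-CXXC fl/fl, 0.55 in Kdm2a-CXXC fl/fl and 0.75 in Kdm2b-CXXC fl/fl, on the log2 scale. The whole interval lay within a fold change of 1.4 in either direction for 0, 5, 1 and 0 promoters in these lines. For the others a change of that size was neither shown nor shown to be absent. The widest intervals were those of Kdm2b-CXXC fl/fl, whose median promoter had 80 to 104 reads in a library against 58 to 81 in Kdm2a/b-JmjC fl/fl, and whose size factors ran from 0.718 to 1.41. The part of either in the width was not tested. Hoxd4 was too low to be tested in any line.

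Of 31 promoters of other genes within 200 kb of a cluster 30 were tested in each line and 0 passed. Their counts below an unadjusted p of 0.05 were 6 in Kdm2a/b-JmjC fl/fl, 3 in Kdm2a/b-CXXC fl/fl, 1 in Kdm2a-CXXC fl/fl and 1 in Kdm2b-CXXC fl/fl, where the shares of all promoters were 20.6%, 4.65%, 8.39% and 0.669%. Evx1, the homeobox gene beside HoxA, had 42.4 ± 4.54 calibrated reads untreated and 44.2 ± 15.9 treated in Kdm2a/b-CXXC fl/fl, and Evx2, beside HoxD, 37.0 ± 12.7 and 26.4 ± 10.0 (SD, n = 4). The 13 ParaHox and Evx promoters had median untreated levels of 42.4 to 68.3 and median log2 fold changes of -0.25, -0.05, -0.25 and 0.05 in the same order of lines. The 9 promoters of TALE cofactors, homeodomain partners of Hox proteins, had -0.30, 0.11, -0.30 and 0.04.

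Promoters of the complexes that silence or activate Hox genes did not pass either. The PRC1 and PRC2 list (34 promoters, of which 32 or 33 were tested) had 0 past the thresholds in each line and medians of -0.25, 0.06, -0.14 and 0.11, and the trithorax and Menin list (13 promoters) had 0 and medians of -0.08, 0.12, -0.29 and 0.01. The embryonic stem cell list (10 promoters) had 0 and medians of -0.11, -0.19, -0.17 and 0.02, and the 14 promoters of the primitive endoderm, mesoderm and neural lists had 0 as well.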

How the data were processed

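Chromatin accessibility was measured by cATAC-seq in 26 libraries of 4 mESC lines, with 26 genomic DNA inputs that are not analysed here. The authors aligned reads to mm10 and dm6 with Bowtie 2, removed multiply mapped, duplicate, mitochondrial and blacklisted reads, counted mouse reads over 400 bp intervals at 20633 promoters, and divided by DESeq2 size factors from fly reads corrected for the mixing ratio of the input, so the deposited signal is a calibrated read count. Each line was calibrated apart, and the authors describe the replicates as biological triplicates or quadruplicates. The deposited tables also hold the authors' mean, fold change, its error, test statistic and p-values, which were not used.

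Whole reads were recovered from the steps in each column (100% of values within 0.01 of a whole number). Promoters passing the filter on low reads of edgeR (filterByExpr, version 4.0.16) were tested within each line with limma 3.58.1 (trend) on log2(calibrated reads + 1), a scale that understates changes of low promoters, with Benjamini-Hochberg adjustment, and called where the fold change was above 1.4 and the adjusted p below 0.05. The groups and the replicate numbers came from the labels. Alternatives were TMM and median-of-ratios scaling, no filter, a pseudocount of 5, a replicate block, edgeR quasi-likelihood and DESeq2 1.42.0 on recovered reads, and leaving out each library. RefSeq identifiers were matched to symbols in 99.1% of rows. Each Hox promoter past the thresholds, the 2 with the smallest p and up to 3 with separated libraries are given in full per line, besides the 3 highest and 3 lowest in untreated Kdm2a/b-CXXC. The pairs of start sites and Hoxa4 by composition were chosen after their values were seen. The members and the gene lists were chosen with earlier results of these data known. Scripts were tested on simulated data. Intervals use a level of 95%.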

Additional observations from a re-analysis of the deposited data

Results flagged for a closer look

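Hoxa10 (NM_001122950) had fold changes of opposite sign in a pair of lines, neither of which passed. After tamoxifen each of the 3 treated libraries was below each untreated library in Kdm2a/b-JmjC fl/fl cells (log2 fold change -0.34 ± 0.28, SE; unadjusted p = 0.232 by limma), as for 23.2% of all promoters, and above them in Kdm2b-CXXC fl/fl cells (0.57 ± 0.40, unadjusted p = 0.156 by limma), as for 2.13% of all promoters. The median of all tested promoters was -0.21 in the first line and 0.10 in the second, and the difference between the lines was not tested. In Kdm2a/b-CXXC fl/fl cells 84 sets of values from the 4 libraries of a treatment were examined. Of these sets 0 had a library far from the others by Dixon's criterion, where chance gives about 1 in 20. The sets come from the same libraries and are not independent.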

How the results depend on the processing

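The count of Hox promoters past both thresholds was 0 in each line under every alternative run. The Hox median minus the median of all promoters moved by less than the spread between libraries under each scaling, filter, pseudocount and block. With 1 library left out its range was -0.042 to 0.021 for Kdm2a/b-JmjC, -0.0037 to 0.041 for Kdm2a/b-CXXC and 0.066 to 0.16 for Kdm2b-CXXC. For Kdm2a-CXXC the range was -0.014 (without untreated replicate 3) to 0.095. The Hox median itself follows the scaling, by construction: in Kdm2a/b-JmjC it was -0.012 with TMM scaling, -0.0097 with median-of-ratios scaling and -0.012 with a replicate block and TMM, and -0.30 to -0.14 with a library left out, and in Kdm2a-CXXC it was 0.059, 0.063 and 0.059. The median of all promoters shifted by over 0.1 between spike-in and TMM scaling in Kdm2a/b-JmjC, in Kdm2a-CXXC and, barely, in Kdm2b-CXXC. Counts over all promoters moved more than those of the Hox promoters. In Kdm2a/b-JmjC the 13 calls became 0 with TMM or median-of-ratios, 71 with a pseudocount of 5, 62 with a replicate block, 114 with edgeR, 1 with DESeq2, and 0 to 607 with a library left out. In Kdm2a/b-CXXC the 0 calls became 17 with TMM or median-of-ratios, 23 with the block and TMM, and up to 8 with a library left out. In Kdm2a-CXXC they became 188 with the block and up to 43 with a library left out, and in Kdm2b-CXXC 1 with TMM or median-of-ratios and 5 with the block. The labels do not say that replicate numbers pair the libraries, so the block was not taken as the main result. Same-numbered libraries had correlations of their deviations of -0.0090 to 0.073, and differently numbered ones of -0.058 to 0.025. In Kdm2a/b-JmjC these were 0.043 to 0.073 against -0.058 to 0.0020. The median of each library was taken out first, so these correlations cannot show a shift of whole libraries shared within a number. The summed calibrated Hox reads went one way within each number in Kdm2b-CXXC (2831, 1818 and 2148 untreated, 3402, 2092 and 2360.1 treated) and in Kdm2a-CXXC (1804, 1985 and 1983 against 1562, 1759 and 1958). Calibrated reads over all promoters also fell within each number in Kdm2a-CXXC (2.13, 2.30 and 2.51 M untreated, 1.76, 2.04 and 2.33 M treated). In Kdm2b-CXXC they were 2.96, 1.75 and 2.12 M untreated and 3.19, 1.98 and 2.11 M treated. With the replicate block the Hox promoters at an unadjusted p under 0.05 numbered 6 in the JmjC line and 3 in the double CXXC line, as without it, and 4 in Kdm2a-CXXC and 8 in Kdm2b-CXXC against 0 without it, and 0 passed, while all promoters at that level went from 1488 to 3895 in the first of these lines and 120 to 1785 in the second. With the block and TMM the Hox counts there were 0 and 3, which are not set beside counts over all promoters here. The promoters given in full for a line kept their sign there under each alternative, while cluster medians near 0 changed sign with the scaling or with a library left out. The block with TMM was added after the data were seen. Hoxd4 had too few reads to pass the filter in any line.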
